A study of Mus musculus with 15 samples.

Results

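The genes described here are collagens, laminins and other proteins of the extracellular matrix, with the enzymes that hydroxylate and crosslink collagen. They were named by symbol, with earlier results of these data known. Of 49 symbols, 48 have a probe set that carries 1 gene symbol, each a single probe set, among 19297 genes in all; Spp1 has none and was not analysed here. The measurements come from 15 Affymetrix Mouse Gene 1.0 ST arrays of Myc-CaP cells, a line from the prostate tumour of a mouse with a Myc transgene. All cells were transfected, selected, grown to confluence and harvested. The 5 groups of 3 arrays are cells with a vector and no insert (VEC), with Twist1 of wild-type sequence (WT), with F191G, a Twist box mutant, and with AQA or DQD, forms whose mutations the labels do not spell out. Every group but VEC thus carries an added Twist1 in a Myc-driven tumour line. The sources used here do not give the promoter that drives it, or whether a group is 1 clone or a pool. The labels do not say whether replicates A, B and C are separate cultures, so p-values cover array-to-array spread alone, and that spread may be technical.

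Twist1 is a basic helix-loop-helix factor that binds E-boxes, DNA motifs of the form CANNTG, and drives epithelial-mesenchymal transition in many epithelia. Matrix proteins fall into an interstitial part, built of fibrillar collagens that are hydroxylated, secreted, trimmed and crosslinked, and a basement membrane, a sheet of laminin and type IV collagen networks joined by nidogens, perlecan and agrin. Epithelial cells sit on the basement membrane, while most interstitial matrix in a tissue is made by fibroblasts. Matricellular proteins such as Sparc, periostin, tenascins and thrombospondins tune how cells attach to this scaffold rather than carry load.

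The stretches upstream of 5 genes that the results turn on, each holding a CANNTG, are shown first, because Twist1 reads E-boxes in DNA. Other such genes hold none, as named below. Each is the 250 bases before the transcription start in RefSeq (GRCm38.p6), 5′ to 3′ on the gene's strand, with every CANNTG in capitals. Lamb2 lies at chr9:108479612-108479861 (plus strand), Tnxb at chr17:34670285-34670534 (plus), Fbln2 at chr6:91212514-91212763 (plus), P4ha3 at chr7:100285270-100285519 (plus) and Sparc at chr11:55420081-55420330 (minus).
Lamb2: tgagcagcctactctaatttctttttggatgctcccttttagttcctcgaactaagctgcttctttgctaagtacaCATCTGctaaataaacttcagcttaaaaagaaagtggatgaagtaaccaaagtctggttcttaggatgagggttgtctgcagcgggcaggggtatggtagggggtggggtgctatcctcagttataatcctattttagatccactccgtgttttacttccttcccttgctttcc
Tnxb: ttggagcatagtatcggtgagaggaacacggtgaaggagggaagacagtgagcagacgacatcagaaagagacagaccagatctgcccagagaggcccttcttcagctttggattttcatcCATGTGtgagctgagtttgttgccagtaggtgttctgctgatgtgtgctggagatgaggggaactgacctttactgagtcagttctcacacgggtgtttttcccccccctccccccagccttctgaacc
Fbln2: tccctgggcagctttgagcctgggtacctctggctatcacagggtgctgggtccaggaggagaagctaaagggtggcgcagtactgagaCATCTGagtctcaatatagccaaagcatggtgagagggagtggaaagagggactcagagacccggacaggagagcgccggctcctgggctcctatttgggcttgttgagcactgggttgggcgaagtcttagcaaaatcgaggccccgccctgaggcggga
P4ha3: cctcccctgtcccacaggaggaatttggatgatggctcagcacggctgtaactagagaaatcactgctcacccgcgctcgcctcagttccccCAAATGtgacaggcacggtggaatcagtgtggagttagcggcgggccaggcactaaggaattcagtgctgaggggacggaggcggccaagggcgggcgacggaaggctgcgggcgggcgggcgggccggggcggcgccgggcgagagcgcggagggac
Sparc: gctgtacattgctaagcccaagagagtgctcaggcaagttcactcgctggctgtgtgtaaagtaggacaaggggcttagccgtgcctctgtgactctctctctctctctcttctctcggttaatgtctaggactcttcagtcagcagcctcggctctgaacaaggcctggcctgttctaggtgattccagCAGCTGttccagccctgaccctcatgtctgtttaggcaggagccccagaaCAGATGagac
Lamb2 and Fbln2 both carry CATCTG, Tnxb carries CATGTG, P4ha3 carries CAAATG, and Sparc carries CAGCTG and CAGATG. The motif CANNTG reads the same on both strands in its fixed letters, so 1 strand was searched. It was found in 22 of 41 windows of 250 bases from 34 of the genes (53.7%), and in 66.2% of 32851 windows of all genes. A match is a description of letters, not of binding. Of the 14 genes called in a comparison below, 9 have a window that was used and 6 of these hold a CANNTG. The windows of Postn, Col11a1 and Col5a1, called genes too, hold none. Agrn has a window with 1 and a window with none.

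The values are log2 signals, already adjusted for array batch before deposit, so that array values printed here are batch-adjusted. A gene is called changed where limma's p, adjusted by Benjamini-Hochberg over all 19297 genes, is under 0.05; differences are on the log2 scale with their standard error (SE), and n is 3 arrays per group. The comparisons against VEC share the VEC arrays, and those against WT share the WT arrays. Array medians ran from 6.31 to 6.42. WT replicate A stands apart: its median correlation with the other arrays was 0.979, against at least 0.993 for each other array. Twist1 itself read 6.43 ± 0.29 (SD, n = 3) in VEC and was 0.36 higher in WT (SE 0.147, limma adjusted p = 0.129), and it was not called in any form. The series' design text names a normalization by Twist1 level, and its effect on these Twist1 values is not known here. Of 8 epithelial markers measured, Krt8 lay above the array median on all 15 arrays (7.35 to 8.89), while Krt5, Krt18, Epcam, Cdh1 and Trp63 lay below it on all 15. Of 8 fibroblast and smooth muscle markers, Pdgfra lay above it on all 15 arrays, Acta2 on 2 and Tagln on 1. Pdgfrb, Thy1, Des, Cnn1 and Fap lay above it on 0. Of 6 haematopoietic markers, Cd68 lay above it on all 15, Cd14 on 8, and Ptprc, Itgam, Csf1r and Cd3e on 0.

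Wild-type Twist1 against vector, a comparison the design text names, moved few matrix genes. Lamb2, the laminin beta 2 chain, and Agrn, the basement membrane proteoglycan agrin, rose. Col12a1, a collagen that decorates fibrils, and Lama3, the alpha 3 chain of the epithelial laminin that anchors hemidesmosomes, fell. These are 4 of 48 genes, where 12.8% of all genes were called, 7.06% higher and 5.72% lower. WT and VEC arrays did not overlap for 8 of the 48 and 31.6% of all genes, and 9 of the 48 and 27.6% of all genes had an unadjusted p under 0.05. The median difference of the 48 was -0.04, against -0.01 over all genes.

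Lamb2 read 9.27, 8.90 and 8.88 in VEC and 10.22, 9.31 and 9.63 in WT (replicates A, B and C in this order throughout). It read 8.62, 9.18 and 8.72 in AQA, 8.46, 9.01 and 8.78 in DQD and 9.00, 9.09 and 9.11 in F191G. Every WT array lay above every other array of this gene. The difference between WT and VEC was 0.71 (SE 0.216, limma adjusted p = 0.0492). Agrn read 9.05, 8.71 and 8.60 in VEC, 9.73, 9.12 and 9.23 in WT, 8.55, 8.82 and 8.67 in AQA, 8.69, 9.06 and 8.89 in DQD, and 8.97, 9.20 and 9.15 in F191G. WT lay above VEC on all arrays but overlapped F191G. Agrn was 0.57 higher in WT than in VEC (SE 0.160, limma adjusted p = 0.0351).

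Col12a1 read 7.35, 7.16 and 7.37 in VEC, 6.36, 6.84 and 6.76 in WT, 6.86, 6.98 and 7.25 in AQA, 7.93, 7.43 and 7.55 in DQD, and 7.19, 7.04 and 7.01 in F191G. WT was lowest and DQD highest, with no overlap of either with any other group. Col12a1 fell by 0.64 in WT against VEC (SE 0.149, limma adjusted p = 0.0184). Lama3 read 7.85, 8.05 and 7.94 in VEC, 7.66, 7.67 and 7.60 in WT, 7.99, 7.76 and 7.81 in AQA, 7.87, 8.03 and 7.88 in DQD, and 7.69, 7.73 and 7.74 in F191G. All WT arrays lay below all others. Lama3 fell by 0.31 in WT against VEC (SE 0.0753, limma adjusted p = 0.0228). Within batch A and batch B the WT differences were 0.68 and 0.75 for Lamb2, 0.55 and 0.63 for Agrn, -0.66 and -0.61 for Col12a1, and -0.29 and -0.34 for Lama3. Without WT replicate A none of the 48 was called against VEC (6 had an unadjusted p under 0.05) and the differences were 0.44 for Lamb2, 0.38 for Agrn, -0.49 for Col12a1 and -0.31 for Lama3. None was called without VEC replicate C either (6 unadjusted), and 2 were called without VEC replicate A and 2 without VEC replicate B. Centring each array on its median ended the call of Lamb2 and left 1 higher and 2 lower.

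Tenascin-X (Tnxb), which spaces collagen fibrils in connective tissue, and laminin beta 3 (Lamb3), a partner of Lama3 in the same trimer, had large WT differences that were not called. Tnxb read 10.52, 9.92 and 9.86 in VEC, 11.29, 10.28 and 10.79 in WT, 9.54, 10.29 and 9.82 in AQA, 9.34, 9.95 and 9.54 in DQD, and 10.12, 10.15 and 10.17 in F191G. The WT and VEC arrays overlapped, and the difference was 0.69 (SE 0.258, limma adjusted p = 0.0984). Lamb3 read 7.18, 6.34 and 6.64 in VEC, 6.12, 6.32 and 6.48 in WT, 6.12, 6.21 and 6.07 in AQA, 6.40, 6.26 and 6.33 in DQD, and 6.34, 6.41 and 6.39 in F191G. VEC replicate A was the highest array, and the WT difference was -0.41 (SE 0.159, limma adjusted p = 0.110).

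**Figure D1:**
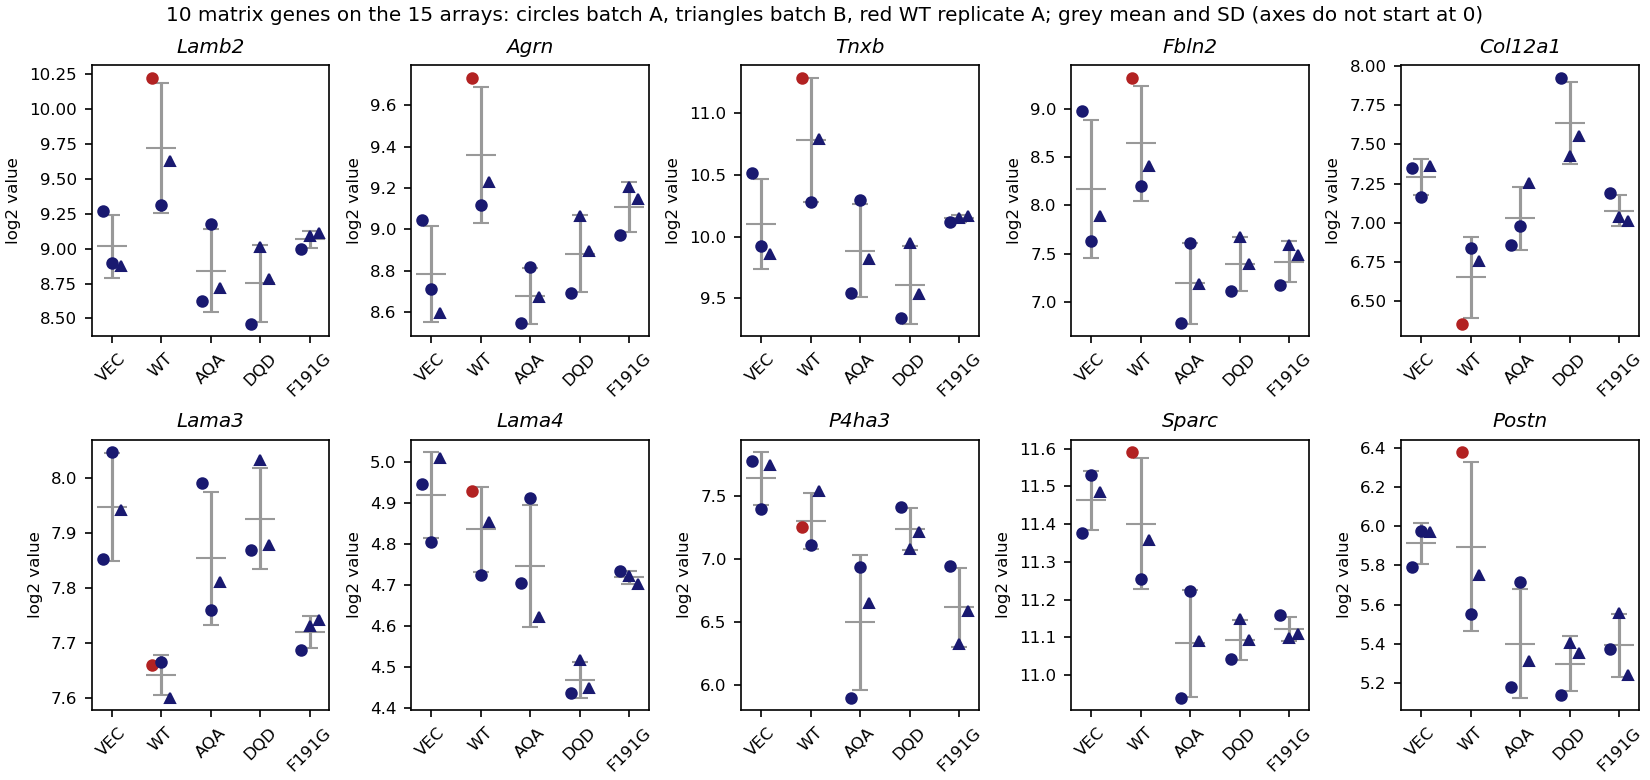
Log2 signal (vertical axes, which do not start at 0) of 10 matrix genes on the 15 arrays by group, with circles for batch A, triangles for batch B, WT replicate A in red, and the group mean and SD in grey. WT is highest for Lamb2 and lowest for Col12a1 and Lama3, and DQD is highest for Col12a1 and lowest for Lama4.

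DQD against wild type gave the most calls: 12 of the 48 genes, 2 higher and 10 lower. Over all genes 24.5% were called in this comparison, 11.8% higher and 12.8% lower. Col12a1 and Lama3 rose. Fbln2, Tnxb, Lamb2, Postn, Lama4, Sparc, Col11a1, Nid2, Col5a1 and Col1a1 fell. The median difference of the 48 was -0.18, against -0.07 over all genes, and 40 of the 48 were below 0. Under quantile normalization the median of the 48 was -0.08 with 34 below 0, and with arrays centred on their medians it was -0.07 with 32 below 0. The arrays of DQD and WT did not overlap for 27 of the 48, as for 48.2% of all genes, and 25 had an unadjusted p under 0.05, as did 40.8% of all genes.

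Among laminins and fibril-associated collagens, Col12a1 was 0.98 higher in DQD than in WT (SE 0.153, limma adjusted p = 0.00774) and Lama3 0.28 higher (SE 0.0771, limma adjusted p = 0.0235). Lamb2 fell by 0.97 (SE 0.221, limma adjusted p = 0.0150). Lama4, a laminin chain of vessel basement membranes, read 4.95, 4.80 and 5.01 in VEC, 4.93, 4.72 and 4.85 in WT, 4.70, 4.91 and 4.62 in AQA, 4.44, 4.52 and 4.45 in DQD, and 4.73, 4.72 and 4.70 in F191G. The 3 DQD arrays were the lowest of all 15. Lama4 fell by 0.37 against WT (SE 0.0846, limma adjusted p = 0.0153) and by 0.45 against VEC (SE 0.0846, limma adjusted p = 0.0460). Lamb1, the beta 1 chain, was not called: it read 5.63, 6.03 and 5.91 in VEC, 5.99, 6.34 and 6.11 in WT, 6.41, 5.99 and 6.30 in AQA, 5.84, 5.90 and 5.72 in DQD, and 5.90, 5.82 and 5.79 in F191G. Its largest difference was 0.38 in AQA against VEC (SE 0.126, limma adjusted p = 0.173).

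Fibulin-2 (Fbln2), a calcium-binding protein of elastic fibres and basement membranes, had the widest range of the 48, with 2.54 between its lowest and highest array. It read 8.98, 7.63 and 7.89 in VEC, 9.32, 8.20 and 8.40 in WT, 6.78, 7.61 and 7.19 in AQA, 7.12, 7.68 and 7.39 in DQD, and 7.18, 7.59 and 7.49 in F191G. All 3 mutant forms lay below WT without overlap, while VEC spread over both. Fbln2 fell by 1.25 in DQD against WT (SE 0.358, limma adjusted p = 0.0272). The differences of AQA (-1.45, limma adjusted p = 0.0548) and F191G (-1.22, limma adjusted p = 0.0544) from WT were of like size and were not called. Against VEC they were -0.97 in AQA, -0.75 in F191G and -0.77 in DQD, none called. Tnxb fell by 1.18 in DQD against WT (SE 0.265, limma adjusted p = 0.0146), with -0.90 in AQA (limma adjusted p = 0.0659) and -0.64 in F191G (limma adjusted p = 0.138). Agrn missed the threshold in DQD against WT at -0.48 (SE 0.164, limma adjusted p = 0.0503).

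The matricellular proteins Sparc and periostin (Postn), both collagen-binding, were lower in DQD than in WT. Sparc read 11.38, 11.53 and 11.48 in VEC, 11.59, 11.25 and 11.36 in WT, 10.94, 11.22 and 11.09 in AQA, 11.04, 11.15 and 11.09 in DQD, and 11.16, 11.10 and 11.11 in F191G. Every array of the 3 mutant forms lay below every VEC and WT array. The fall against WT was called in DQD (-0.31, SE 0.0930, limma adjusted p = 0.0328), and not in AQA (-0.32, limma adjusted p = 0.0656) or F191G (-0.28, limma adjusted p = 0.0753). Against VEC none was called, at -0.38 in AQA (limma adjusted p = 0.0708), -0.37 in DQD (limma adjusted p = 0.0640) and -0.34 in F191G (limma adjusted p = 0.204). Postn read 5.79, 5.98 and 5.97 in VEC, 6.38, 5.55 and 5.75 in WT, 5.18, 5.71 and 5.31 in AQA, 5.14, 5.40 and 5.36 in DQD, and 5.38, 5.56 and 5.24 in F191G. DQD lay below all VEC and WT arrays, and Postn fell by 0.60 against WT (SE 0.191, limma adjusted p = 0.0396). WT replicate A was its highest array, and without it the difference was -0.37 and not called.

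All 6 fibrillar collagens were lower in DQD than in WT (median -0.24), and 3 of them fell. With genes put into 3 equal classes by mean signal, all 6 lie in the middle class. The median over all genes in this comparison was -0.11 in the middle class, -0.09 in the dimmest and 0.09 in the brightest. Col1a1, a chain of type I collagen, read 6.98, 7.09 and 7.14 in VEC, 7.02, 7.03 and 7.02 in WT, 6.99, 6.93 and 6.82 in AQA, 6.85, 6.74 and 6.88 in DQD, and 6.86, 6.96 and 6.91 in F191G. It fell by 0.20 (SE 0.0675, limma adjusted p = 0.0466). Col5a1, a chain of type V collagen, which seeds fibrils, read 7.48, 7.54 and 7.45 in VEC, 7.74, 7.54 and 7.63 in WT, 7.35, 7.51 and 7.45 in AQA, 7.40, 7.43 and 7.45 in DQD, and 7.52, 7.52 and 7.52 in F191G, a fall of 0.21 in DQD against WT (SE 0.0650, limma adjusted p = 0.0334). For both genes all 3 DQD arrays lay below all 3 WT arrays. Col11a1, a chain of the related type XI collagen, read 6.36, 6.59 and 6.60 in VEC, 6.69, 6.59 and 6.61 in WT, 6.52, 6.65 and 6.54 in AQA, 6.39, 6.22 and 6.46 in DQD, and 6.55, 6.57 and 6.52 in F191G. It fell by 0.27 in DQD against WT (SE 0.0829, limma adjusted p = 0.0339). Nid2, a nidogen that ties laminin to type IV collagen, read 5.48, 5.48 and 5.54 in VEC, 5.57, 5.39 and 5.47 in WT, 5.42, 5.53 and 5.43 in AQA, 5.29, 5.29 and 5.14 in DQD, and 5.38, 5.49 and 5.42 in F191G, a fall of 0.24 in DQD against WT (SE 0.0694, limma adjusted p = 0.0291). DQD was again below WT on every array.

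Several of these calls depended on how arrays were put on a common scale. Centring each array on its own median moved the median of all genes by 0.11 in DQD against WT, and left 2 of the 48 higher and 4 lower. Quantile normalization again gave 2 higher and 7 lower, of which 8 were among the 12 and 1, Agrn, was added. Col11a1, Col1a1, Nid2 and Postn were lost under both, and Col5a1 and Sparc under centring alone. All 6 fibrillar collagens stayed below 0 in DQD against WT under both, with 0 called under centring and 1 under quantile normalization. Without WT replicate A 5 were called (Col12a1, Lama3, Lama4, Lamb2 and Tnxb), and without DQD replicate A none (18 had an unadjusted p under 0.05). Without WT replicate C 6 were called, 5 of the 12 and Col4a5, and 7 without DQD replicate B. DQD has 1 array in batch A, where no gene was called; within batch B, where WT has 1 array, 4 were called, namely Col12a1, Fbln2, Lamb2 and Tnxb. In both batches the lone array is assumed to vary like the arrays of the other groups. In batches A and B the DQD differences from WT were 1.33 and 0.73 for Col12a1, -1.30 and -0.73 for Lamb2, and -1.64 and -0.87 for Fbln2.

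**Figure D2:**
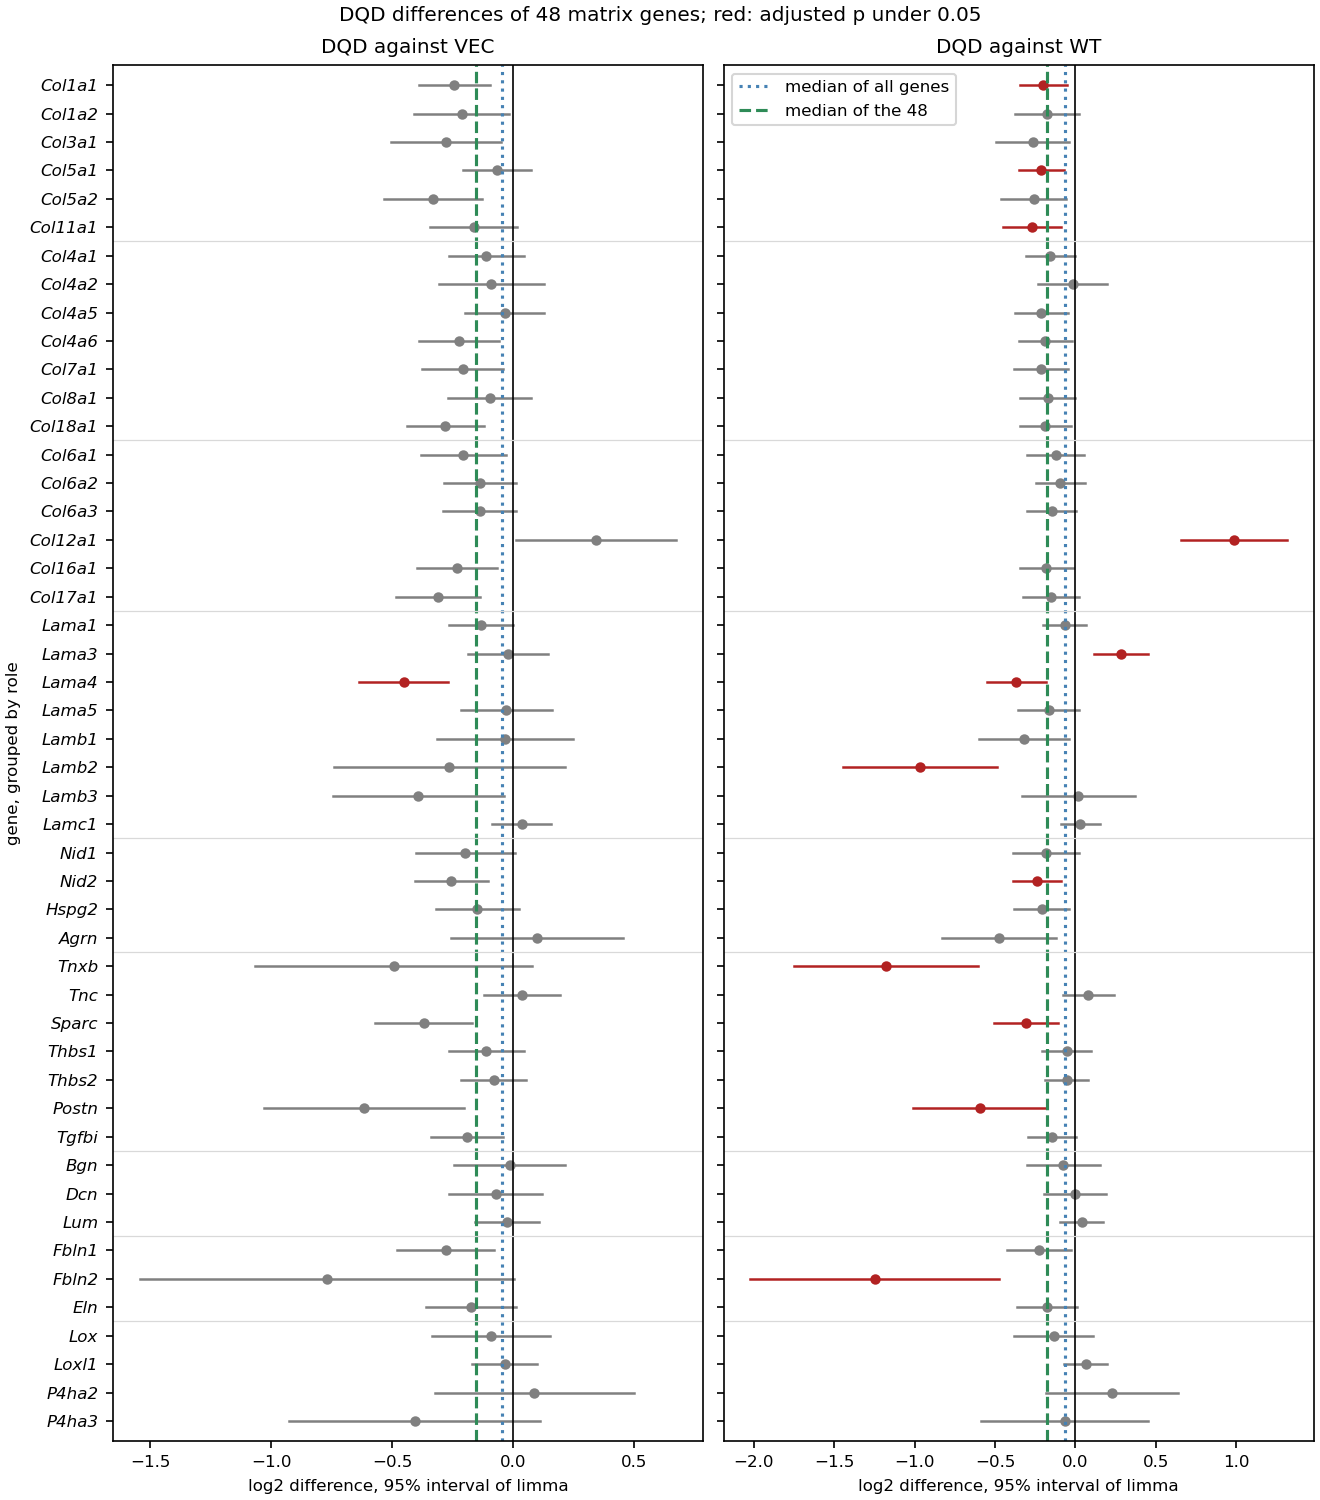
Log2 difference of the 48 matrix genes (horizontal axis) with 95% intervals, DQD against VEC on the left and DQD against WT on the right, called genes in red. The dashed median of the 48 lies at -0.15 against VEC and -0.18 against WT, and the dotted median of all genes at -0.05 and -0.07.

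DQD against vector gave 1 call, Lama4, of 48, where 0.814% of all genes were called, and 43 of the 48 were below 0 on the deposited values, 34 under quantile normalization and 33 under centring. The arrays of DQD and VEC did not overlap for 20 of the 48 and 34.8% of all genes, and 18 of the 48 and 24% of all genes had an unadjusted p under 0.05. The median was -0.15 against -0.05 over all genes. All 6 fibrillar collagens (median -0.23) and all 7 network collagens (median -0.11) were below 0, of which 5 and 6 stayed so under centring and 6 and 5 under quantile normalization. Postn (-0.61, limma adjusted p = 0.0929) and Fbln2 (-0.77, limma adjusted p = 0.210) had the lowest differences, and Col12a1 (0.34, limma adjusted p = 0.193) and Agrn (0.10, limma adjusted p = 0.747) the highest. Leaving out any 1 VEC or DQD array, or quantile normalization, ended the call of Lama4, while 3 genes were called without WT replicate A. The median of the 48 was -0.09 under quantile normalization and -0.07 under centring, beside -0.01 and 0.03 over all genes. With genes put into 3 equal classes by mean signal, the median over all genes on the deposited values was -0.11 in the dimmest class, -0.08 in the middle and 0.05 in the brightest. The matrix genes are spread 10, 30 and 8 over these classes, with medians of -0.09, -0.17 and -0.15.

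**Figure D3:**
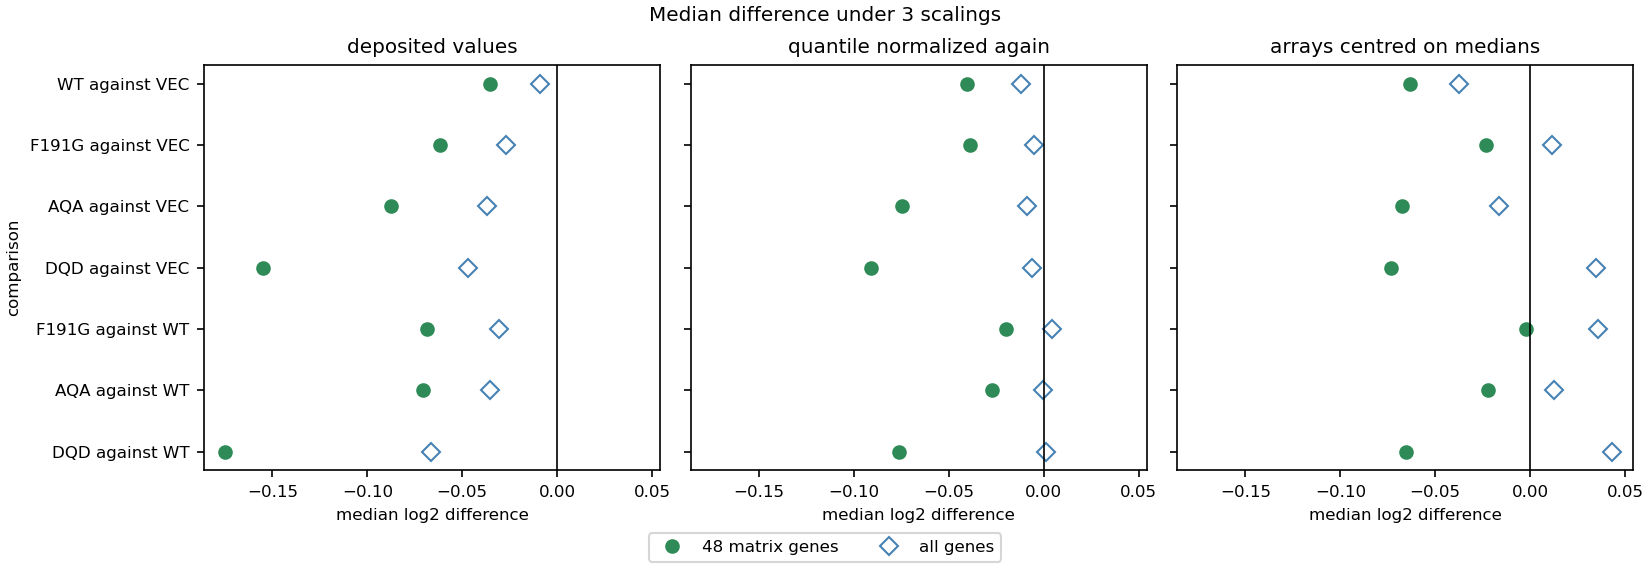
Median log2 difference (horizontal axis) of the 48 matrix genes (filled circles) and of all 19297 genes (open diamonds) in the 7 comparisons, under the deposited values, quantile normalization again and median centring. The circles lie left of the diamonds in all 7 comparisons and 3 scalings, at -0.18 and -0.07 for DQD against WT on the deposited values.

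AQA against vector gave 1 call, where 0.881% of all genes were called. Arrays did not overlap for 11 of the 48 and 25.8% of all genes, and 8 of the 48 and 15.7% of all genes had an unadjusted p under 0.05. P4ha3, a catalytic subunit of the prolyl 4-hydroxylases that stabilise the collagen helix, read 7.78, 7.40 and 7.75 in VEC, 7.25, 7.11 and 7.54 in WT, 5.89, 6.94 and 6.65 in AQA, 7.41, 7.08 and 7.22 in DQD, and 6.95, 6.32 and 6.58 in F191G. AQA and F191G lay below every array of the other groups. P4ha3 fell by 1.15 in AQA against VEC (SE 0.234, limma adjusted p = 0.0422), and its F191G difference of -1.03 was not called (SE 0.240, limma adjusted p = 0.145). The call ended under centring and without VEC replicate A, VEC replicate C, AQA replicate A (where the difference was -0.83) or AQA replicate C, and 2 genes were called without WT replicate A, VEC replicate B or AQA replicate B. P4ha2, another such subunit, had positive differences that were not called. It read 7.64, 7.27 and 7.19 in VEC, 6.95, 7.43 and 7.30 in WT, 8.03, 7.40 and 7.67 in AQA, 7.63, 7.35 and 7.39 in DQD, and 7.48, 7.97 and 7.88 in F191G. Its differences from VEC were 0.33 in AQA (limma adjusted p = 0.405) and 0.41 in F191G (limma adjusted p = 0.426).

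F191G against vector, the other comparison the design text names, gave no call among the 48 in limma, where 0.0985% of all genes were called; 7 of the 48 and 11.7% of all genes had an unadjusted p under 0.05, and 13 and 21.1% had no overlap of arrays. F191G against WT gave none either, where 7.13% were called, with 9 of the 48 and 27.7% of all genes under 0.05 unadjusted and 13 and 34.4% without overlap. AQA against WT gave none, where 0.726% were called, with 12 and 25% under 0.05 unadjusted and 13 and 30% without overlap. In both comparisons against WT the lowest differences were those of Fbln2, and Col12a1 and P4ha2 had the highest. Col12a1 was 0.43 higher in F191G than in WT (limma adjusted p = 0.0920) and 0.38 higher in AQA (limma adjusted p = 0.138). P4ha2 was 0.55 higher in F191G than in WT (limma adjusted p = 0.0827) and 0.47 higher in AQA (limma adjusted p = 0.135). Leaving out WT replicate B gave 6 calls in F191G against WT and 8 in AQA against WT, and leaving out AQA replicate B gave 6 in AQA against WT. A joint test over the 5 groups called Col12a1 (limma adjusted p = 0.0247), P4ha3 (0.0352), Lama4 (0.0368) and Sparc (0.0375), 4 of 48, where 10.1% of all genes were called. It called none of the 48 without DQD replicate A or VEC replicate C (15 and 14 unadjusted). It called 1 without F191G replicate B or any replicate C of WT, AQA, DQD or F191G, 2 without AQA replicate A, F191G replicate A or DQD replicate B. With WT replicate B left out it called 9, and with AQA replicate B left out 10.

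**Figure D4:**
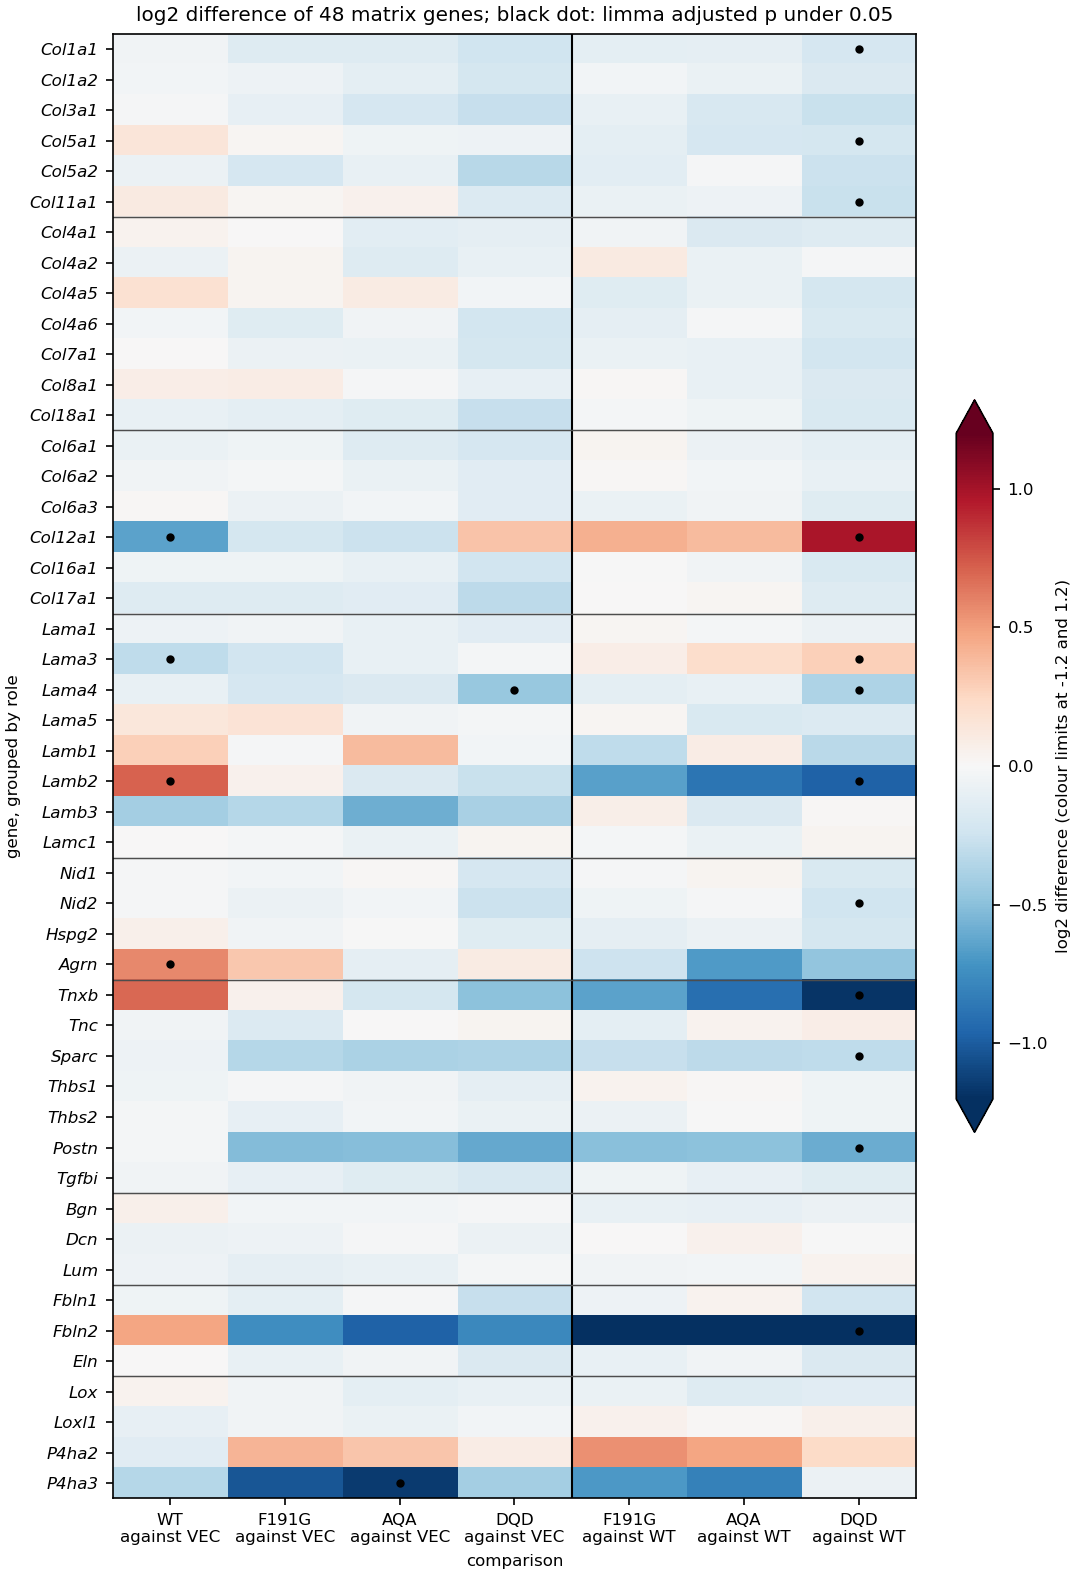
Log2 difference of the 48 matrix genes (rows, grouped by role) in the 7 comparisons (columns), red for higher and blue for lower, with a black dot where the limma adjusted p is under 0.05. Dots are most frequent in DQD against WT (12), with 4 in WT against VEC and none in F191G against VEC.

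The type IV collagen genes come as head-to-head pairs whose chains assemble together. The RefSeq windows of Col4a1 and Col4a2, each 300 bases around the start and on opposite strands of chromosome 8, share 78 bases, and those of Col4a6 and Col4a5 on chromosome X lie 842 bases apart. Col4a1 read 6.83, 6.93 and 6.89 in VEC, 6.88, 6.95 and 6.96 in WT, 6.68, 6.78 and 6.83 in AQA, 6.81, 6.66 and 6.86 in DQD, and 6.96, 6.82 and 6.90 in F191G. Col4a2 read 6.67, 6.77 and 6.89 in VEC, 6.53, 6.74 and 6.84 in WT, 6.70, 6.65 and 6.52 in AQA, 6.65, 6.70 and 6.70 in DQD, and 6.99, 6.75 and 6.70 in F191G. Neither gene was called in any comparison. For Col4a1 all AQA arrays lay just below all VEC arrays, and all AQA and DQD arrays below all WT arrays. Col4a5 read 6.47, 6.48 and 6.58 in VEC, 6.85, 6.64 and 6.57 in WT, 6.59, 6.68 and 6.56 in AQA, 6.44, 6.50 and 6.48 in DQD, and 6.48, 6.58 and 6.57 in F191G. Col4a6 read 5.40, 5.42 and 5.49 in VEC, 5.40, 5.39 and 5.40 in WT, 5.36, 5.45 and 5.35 in AQA, 5.29, 5.04 and 5.30 in DQD, and 5.23, 5.25 and 5.38 in F191G. In DQD against WT the differences were -0.16 for Col4a1, -0.02 for Col4a2, -0.21 for Col4a5 and -0.19 for Col4a6, none called.

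The remaining members were not called in any comparison. They include the other fibrillar collagens, the type VI collagens of microfibrils, Hspg2 (perlecan), Nid1, the thrombospondins Thbs1 and Thbs2, Tgfbi, the small leucine-rich proteoglycans biglycan (Bgn), decorin (Dcn) and lumican (Lum), elastin (Eln), Fbln1 and the lysyl oxidases Lox and Loxl1. Of the 48, 18 lay above the array median on all 15 arrays, 19 below it on all, and 11 above it on some. Among the remaining members, mean signals were as low as 3.10 for Lum, 4.27 for Lox and 4.92 for Dcn. At such levels the lack of a call does not show a steady level. The median range of the 48 over the 15 arrays was 0.44, against 0.46 over all genes. Lamc1, the gamma chain of most laminins, had the narrowest range at 0.19.

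Genes that process collagen were counted beside the members, by lists chosen with earlier results of these data known. Of 27 collagen assembly genes measured, 6 rose and 1 fell in WT against VEC, while the DQD comparison with WT had 1 rise and 7 falls. The shares of all genes that these and the next counts stand beside were 7.06% higher and 5.72% lower in WT against VEC, and 11.8% higher and 12.8% lower in DQD against WT. Pcolce, which speeds the trimming of procollagen, was 0.55 higher in WT than in VEC (SE 0.0822, limma adjusted p = 0.00462) and lower than WT in all 3 mutant forms, with differences of -0.77 in DQD (SE 0.0843, limma adjusted p = 0.00709), -0.42 in F191G (limma adjusted p = 0.0294) and -0.40 in AQA (limma adjusted p = 0.0490). The lysyl oxidase gene Loxl3 fell by 0.55 in WT (SE 0.105, limma adjusted p = 0.00992) and by 0.58 in AQA (SE 0.105, limma adjusted p = 0.0312) against VEC.

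Among 31 matrix receptors the WT comparison with VEC had 4 rises and 4 falls, and DQD against WT 3 rises and 8 falls. Ddr2, a collagen receptor kinase, rose by 0.56 in WT (SE 0.0788, limma adjusted p = 0.00417) and by 0.40 in AQA (SE 0.0788, limma adjusted p = 0.0391) against VEC. The fibronectin receptor subunit Itga5 fell by 0.58 in WT against VEC (limma adjusted p = 0.0436) and was 0.63 higher in DQD than in WT (limma adjusted p = 0.0250). The integrin beta 3 gene Itgb3 fell by 0.69 in WT against VEC (limma adjusted p = 0.0411) and was higher than WT in F191G (0.83, limma adjusted p = 0.0385) and DQD (0.68, limma adjusted p = 0.0327). Of 65 other matrix genes, 3 rose in WT against VEC, and none rose and 16 fell in DQD against WT. Ogn, a small proteoglycan, was 4.24 higher in WT than in VEC (SE 0.912, limma adjusted p = 0.0140), with an SD of 2.18 over the WT arrays. Lamc3, a laminin gamma chain, fell by 0.95 in DQD against WT (SE 0.203, limma adjusted p = 0.0126), and Ecm1 fell by 0.90 in AQA against VEC (SE 0.171, limma adjusted p = 0.0353). Among 21 TGF-beta genes 4 rose in WT against VEC, and in DQD against WT 4 rose and 5 fell. The ligand gene Tgfb2 was 1.37 higher in WT than in VEC (SE 0.382, limma adjusted p = 0.0350) and fell by 1.58 in DQD against WT (SE 0.392, limma adjusted p = 0.0186). None of the 4 lists had a call in F191G against VEC or DQD against VEC, where 0.0985% and 0.814% of all genes were called. F191G against WT had 1 fall among collagen assembly genes, 1 rise and 4 falls among receptors, 3 falls among other matrix genes and 1 fall among TGF-beta genes. Over all genes 7.13% were called in that comparison, either way.

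Markers of other cell types were counted in DQD against WT, where 12.8% of all genes fell. Of 8 fibroblast markers 2 fell, Thy1 and Pdgfrb, and the summed linear signal of the 8 ran from 484.1 to 520.3 in WT, from 423.6 to 487.7 in DQD and from 460.1 to 502.2 in VEC. Of 6 haematopoietic markers 3 fell, with a sum of 329.3 to 395.7 in WT, 297.8 to 326.7 in DQD and 327.7 to 345.8 in VEC. Cd68 was also 0.61 higher in WT than in VEC (SE 0.159, limma adjusted p = 0.0269). The other 5 haematopoietic markers had differences below 0 in that comparison, and the median of the 6 was -0.04. Of 6 endothelial markers 1 fell, with a sum of 208.1 to 218.5 in WT, 189.8 to 205.5 in DQD and 208.4 to 214.5 in VEC. Of 8 epithelial markers 1 fell, Cdh1, and the sum of the 8 was 600.3 to 642.1 in WT, 451.9 to 500.3 in DQD and 498.4 to 859.0 in VEC. This linear sum leans on Krt8, whose log2 median over the arrays was 7.99, while the next highest, Trp63, had 5.79. The lowest log2 value of any probe set was 1.41, so a value above 0 does not show that a marker is expressed. Pbsn, Fap and Emcn had the lowest medians of the markers, at 2.14, 3.18 and 3.65. The part of these markers in the differences of the matrix genes was not tested. In bulk samples, fewer cells of a type and less RNA per cell cannot be told apart.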

How the data were processed

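Total RNA of 15 samples of Myc-CaP cells was measured on 1-colour arrays. The deposited log2 values of 23811 probe sets were made by the authors with RMA and limma, per the submitters' processing notes, which give no versions. A further normalization by Twist1 level is named in the series' design text, without its form. In the deposited values the batch difference beside group is 0 (tolerance 1e-08) for all 19297 genes, so batch had been removed with group in the model; its size before that is not known here. The number of arrays limits the precision.

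The platform annotation gives 1 gene symbol for 20852 probe sets, several for 1440 and none for 1519; the probe set with the highest mean was kept for each gene. With limma 3.58.1 (R 4.3.3), 1 linear model of group and batch took in the 15 arrays (9 residual and 3.93 prior degrees of freedom); keeping the batch term keeps the degrees of freedom that its removal used. Each test of a gene is 1 of 19297. Labels put 8 arrays in batch A, the other 7 in batch B. The fit was tested on simulated data for WT against VEC: over 19297 genes, 95% of simulated log2 changes of 1 and 76% of those of 0.5 were called. Of 183 genes called there, 12 were unchanged. Simulated noise was normal and independent, with the SD of a gene equal on every array. No simulated array stood apart as WT replicate A does, so these shares need not hold for the real arrays.

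Members called in any comparison or by the joint test, plus the 2 largest rises and falls in each, are given with all arrays; other lists give at most 3 called genes each way, or values of the 2 smallest p, and examples of these are printed. The members and lists were chosen with earlier results of these data known. Alternatives were no batch term, a replicate block, 2 other scalings, no dim genes, Twist1 as a covariate, a variance trend, each batch alone, only the arrays compared, and each array left out. Promoter windows are RefSeq's. Windows of members on a chromosome set aside were not used, and 14 members have none here. The share over all genes was not limited in this way. Figures were drawn with matplotlib 3.10.9.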

Additional observations from a re-analysis of the deposited data

How the results depend on the processing

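The count of the 48 genes called depended on most alternatives. In WT against VEC (4 called) it was 0 with the Twist1 value as a covariate, in batch A alone, in batch B alone and with only the arrays compared, where 6, 3, 8 and 5 had an unadjusted p under 0.05 in limma. In F191G against VEC (0) it was 1 in batch B alone, where VEC has 1 array. In AQA against VEC (1) it was 2 without the batch term, and 0 with the replicate block, centring, the Twist1 covariate, the variance trend, either batch alone or only the arrays compared. In DQD against VEC (1) it was 7 without the batch term, and 0 with the replicate block, quantile normalization, no dim genes, the Twist1 covariate, either batch alone or only the arrays compared. The dim genes left out include Lama4 and Nid2, so that setting did not test them. In F191G against WT (0) it was 3 without the batch term and 1 without dim genes, and in AQA against WT (0) 6, and 3, with 2 under quantile normalization. In DQD against WT (12) it was 18 without the batch term, 14 without dim genes, 6 with the replicate block, 6 under centring, 4 in batch B alone, and 0 in batch A alone or with only the arrays compared. The joint test (4) called 13 without the batch term, 7 without dim genes, and 0 with the replicate block, the Twist1 covariate or either batch alone. Without the batch term the differences are the same and the SE smaller, because batch was already removed. Leaving out each array in turn gave 0 to 5 in WT against VEC, 0 in F191G against VEC, 0 to 2 in AQA against VEC, 0 to 3 in DQD against VEC, 0 to 6 in F191G against WT, 0 to 8 in AQA against WT, 0 to 14 in DQD against WT and 0 to 10 in the joint test. Signs were followed for the calls and for the 2 largest rises and falls in each comparison. They were not followed singly for other differences, such as those of the type IV collagens. Among the differences followed, the sign turned only for Agrn in DQD against VEC, which was not called. It was -0.00025 with the replicate block, -0.19 in batch A alone and -0.042 without VEC replicate C. Leaving out each array in turn gave -0.042 to 0.24 for Agrn. Over all 48 genes the other scalings turned 3 to 11 signs per comparison, 11 and 10 in DQD against VEC and 8 and 8 in DQD against WT. Deviations of same-letter arrays from their group means correlated from -0.850 to 0.225, and 6 of 30 pairs passed 0.1. With batch removed beside group, deviations cancel within each batch, and letters A and C each lie in a single batch. These correlations therefore cannot show whether the replicate letters pair the arrays. Apart from the effect of the batch term, the cause of these changes was not tested.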
